A study of Mus musculus with 50 samples.

Results

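The genes described here encode 10 enzymes of mitochondrial fatty acid oxidation: Cpt1a, Cpt1b, Cpt2, Acadm, Acadl, Acadvl, Hadha, Hadhb, Acaa2 and Etfdh. They were chosen by symbol, and all 10 were found by Ensembl ID among the 52636 genes of the count table. The rule itself used no measured value, but the members were chosen with earlier results of these data known. RNA was sequenced from 50 thyroids of male C57BL/6 mice aged 10 to 14 weeks, in 10 groups of 5 libraries. Every mouse had received 1 intraperitoneal dose of antibody in PBS. The control groups received anti-ragweed (RW), an isotype control antibody, at 40 mg/kg. The group named aJ1aJ2 received blocking antibodies against the Notch ligands Jag1 and Jag2, at 20 mg/kg each. The group named aN1aN2 received antibodies against the receptors Notch1 and Notch2, at 5 and 10 mg/kg. The group named aN1aN2aN3 received antibodies against Notch1, Notch2 and Notch3, at 5, 10 and 20 mg/kg.

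RW, aJ1aJ2 and aN1aN2 thyroids were taken at 15 hours and again at 5 days. The 7-day thyroids formed 2 sets with separate runs of sample IDs in their titles: the first held RW and aJ1aJ2, and the second held aJ1aJ2 and aN1aN2aN3. With no RW group among the libraries of the second set used here, its 2 antibody groups were compared with each other. In the titles, the sample IDs of aN1aN2 at 15 hours run on into those of 5 days and stand apart from those of RW and aJ1aJ2 at 15 hours. The series text also mentions daily injections of the thyroid hormones T4 and T3, and no label says which mice received them. The labels do not say whether libraries of a group came from separate mice, so each p-value measures the spread between these libraries.

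Mitochondria shorten fatty acids in repeated cycles. The carnitine palmitoyltransferases bring the acyl chain into the mitochondrion, acyl-CoA dehydrogenases open each cycle, the trifunctional protein and a thiolase finish it, and electron transfer flavoprotein and its dehydrogenase pass the electrons to the respiratory chain. Cells rich in mitochondria, such as muscle and brown fat cells, express these enzymes strongly, and Cpt1b is the carnitine palmitoyltransferase of muscle and brown fat. A thyroid taken at necropsy lies against muscle and fat, and its follicle cells are marked by thyroglobulin (Tg).

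Total counts per library ranged from 15271242 to 52835846. Tg took 0.45% to 42.4% of the reads of a library. Scaled to library size as CPM, the summed counts of 10 skeletal muscle markers ranged from 433 to 150799 CPM, and those of 7 brown fat markers from 46.9 to 3036 CPM. All 10 muscle markers were detected in every library, led by Myh4 and Atp2a1. Of the brown fat markers, Ucp1 and Cox8b were the most abundant and only Zic1 was at 0 anywhere, in 3 libraries. The 5 heart muscle markers together reached at most 8.12 CPM. In the second 7-day set Tg took 1.15% to 6.5% of reads, and its aJ1aJ2 replicate 4 had a muscle sum of 138034 CPM. Outside that set 2 libraries of 5 days stood apart: RW replicate 3, with the lowest Tg share and the highest muscle sum of all, and aJ1aJ2 replicate 3, with Tg at 2.39% and a muscle sum of 107284 CPM. That RW library had a brown fat sum of 626 CPM. Its 9 general fat markers summed to 506 CPM, where the lowest of all libraries was 504 CPM. How far the brown fat sum also rises with muscle was not tested. In the first 7-day set aJ1aJ2 replicate 2 had a muscle sum of 101628 and a brown fat sum of 2350 CPM. Fewer cells of a type and less RNA per cell cannot be told apart in whole tissue.

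Enzyme levels are in CPM on library sizes scaled by the trimmed mean of M-values, and were divided by the length of the exons in kilobases (kb) wherever genes are set beside each other. That length joins all annotated exons of a gene over every transcript. In the 40 libraries outside the second 7-day set, Acaa2, the last thiolase of the cycle, had the highest median level per length at 186 CPM per kb of exon. Acadl, the long-chain acyl-CoA dehydrogenase, followed at 113. Acadvl stood at 48.5, Acadm at 31.7, Hadha at 28.0, Cpt2 at 25.6 and Cpt1b at 21.9 CPM per kb. Cpt1a at 13.3, Etfdh at 12.8 and Hadhb at 1.53 CPM per kb were lowest. Acaa2 and Acadl ranked first or second of the 10 in each of these 40 libraries, and Hadhb ranked 9th or 10th. The places between them were not stable: Cpt1b ranged from 3rd to 9th and Cpt1a from 6th to 10th across these libraries. The order rests partly on the length, which was 1.52 kb for Acaa2, 3.37 for Cpt1b, 7.64 for Cpt1a and 8.73 for Hadha. Undivided, the median over all 50 libraries was 97.6 CPM for Cpt1a and 55.0 CPM for Cpt1b, and Hadhb was still lowest at 11.2 CPM.

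Exons of 4 members overlap another gene in GENCODE M21, so their counts are uncertain where reads of the overlap were assigned. Cpt1b shares exon sequence with Gm44502 on its own strand. Acadvl overlaps Dvl2, Hadha overlaps Garem2 and Etfdh overlaps 4930579G24Rik, each on the opposite strand. Whether strand was used in counting is not given in the sources used here.

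**Figure D1:**
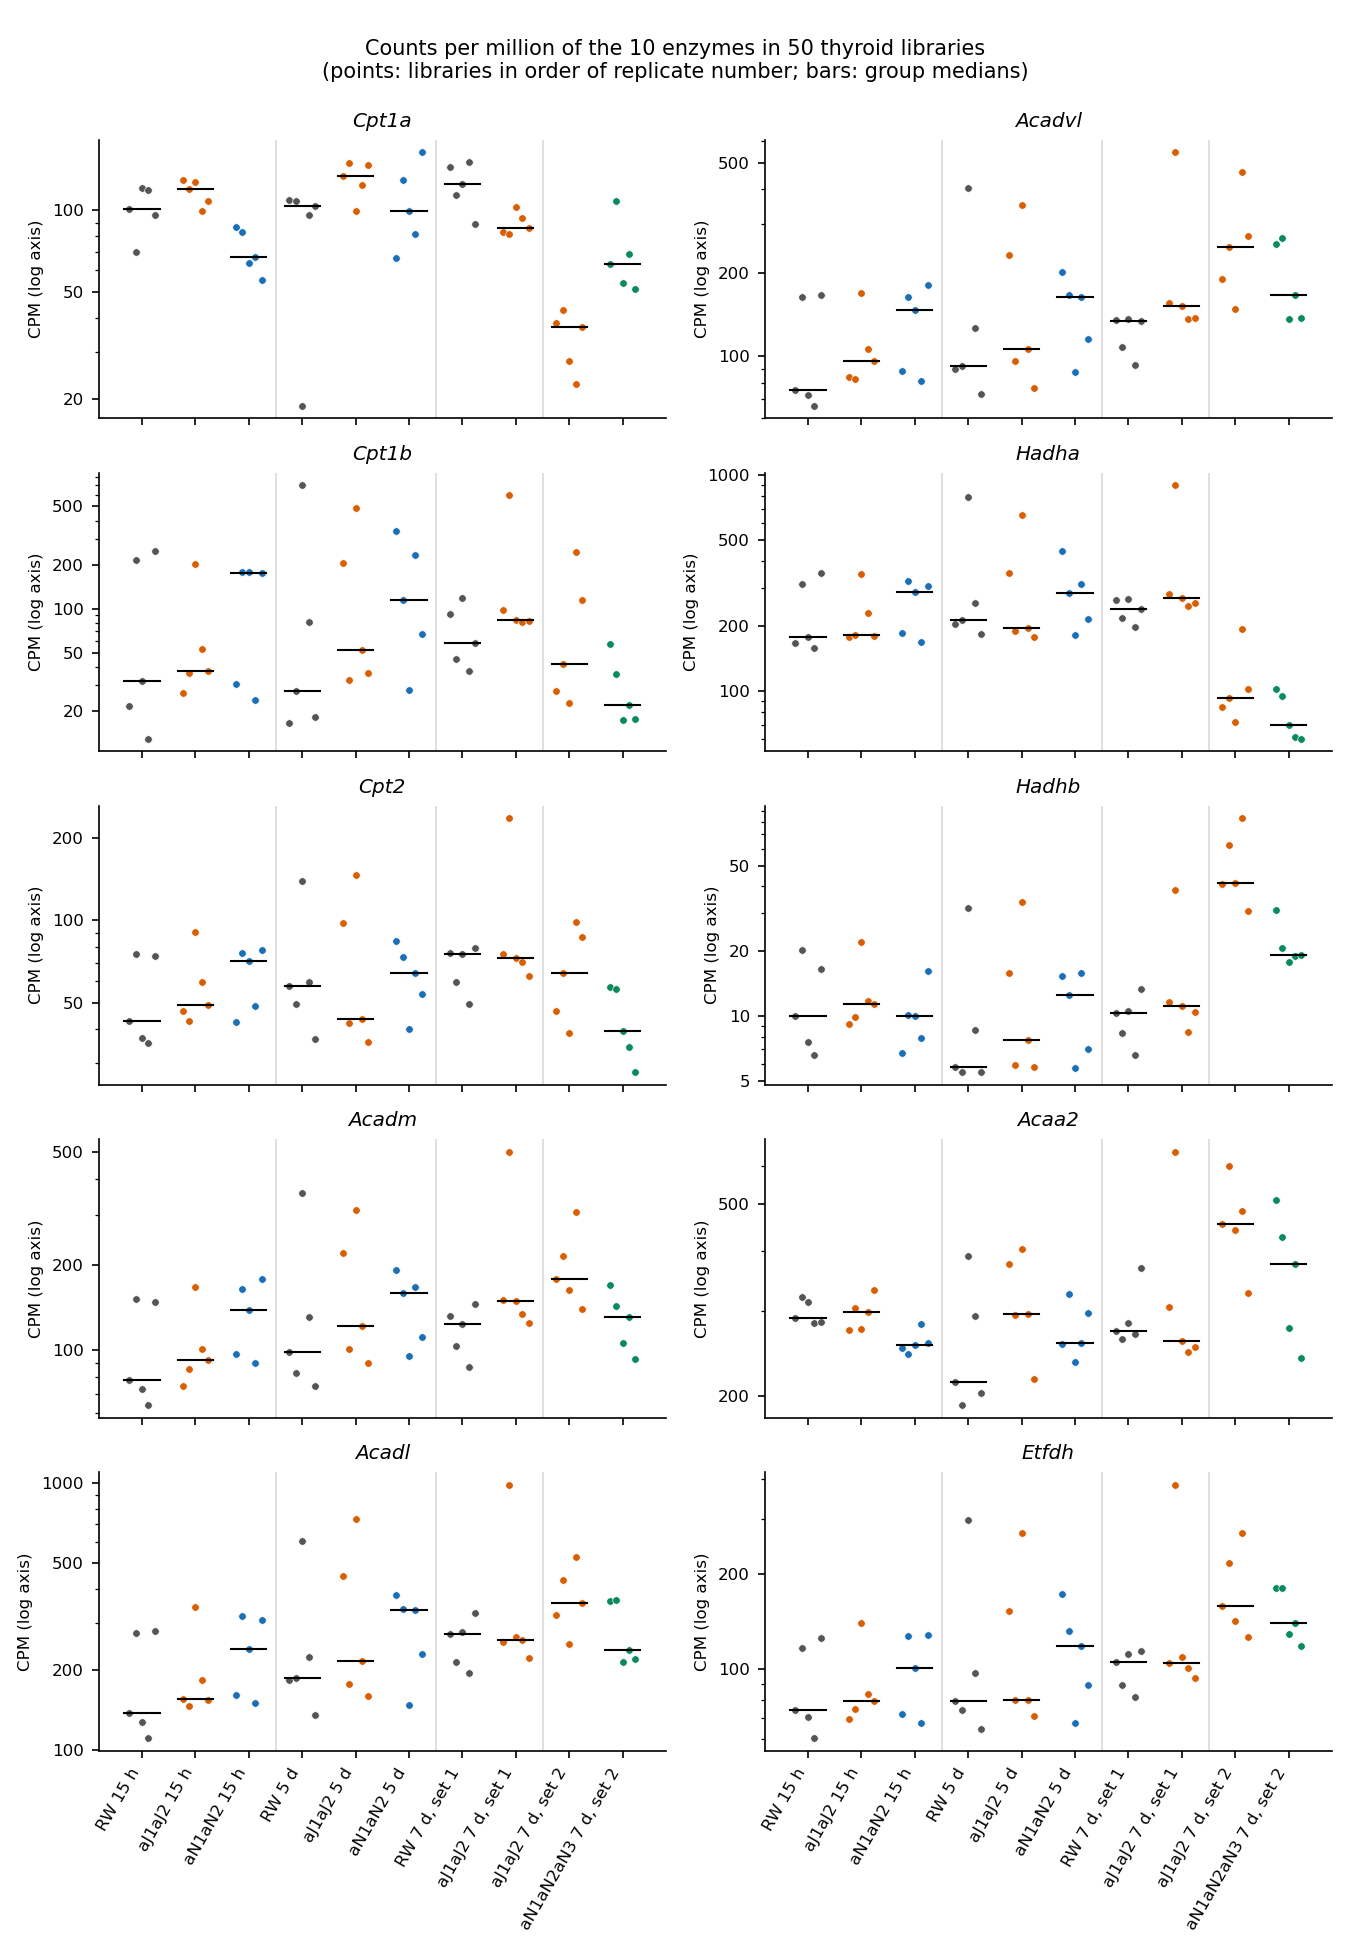
CPM of each enzyme (log axis) in every library, by group; points are libraries in order of replicate number, bars are group medians, and grey lines divide 15 hours, 5 days and the 7-day sets. In Cpt1b and most other panels single libraries stand far above their group, whereas in Cpt1a the RW library of replicate 3 at 5 days lies lowest of all at 18.9 CPM.

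Cpt1a (ENSMUSG00000024900), the carnitine palmitoyltransferase of liver and of most other tissues and the rate-limiting gate of the pathway, had its highest group mean in aJ1aJ2 at 5 days, 131 ± 20.2 CPM (SD, n = 5). Its lowest was in aJ1aJ2 of the second 7-day set, 33.7 ± 8.23 CPM (SD, n = 5). Placed in order of their means, every group overlapped the next in range except the lowest, which lay wholly below the aN1aN2aN3 libraries of its own set. Over all 50 libraries Cpt1a ranged 8.64-fold.

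The region before the RefSeq start of Cpt1a is shown because this gene varied apart from the other enzymes. The stretch lies outside every GENCODE M21 exon, within the annotated span of the gene, at chr19:3323051-3323284 of GRCm38.p6 on the plus strand. Capitals mark the nuclear receptor half-site AGGTCA, here as its reverse complement TGACCT, and the GC box GGGCGG, here as CCGCCC.
Cpt1a: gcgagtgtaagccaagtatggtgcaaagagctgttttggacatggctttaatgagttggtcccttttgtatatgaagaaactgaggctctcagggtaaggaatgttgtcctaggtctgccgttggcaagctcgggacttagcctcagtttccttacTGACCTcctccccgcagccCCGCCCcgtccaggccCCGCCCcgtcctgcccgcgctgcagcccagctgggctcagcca

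From RefSeq's promoter table, windows of 250 bases before to 50 bases after the start were read for 8 of the 10 enzymes. Those of Cpt1b and Acaa2 were not among the windows read. On either strand the half-site AGGTCA occurred in 3 of these 8 windows (Acadm, Acadvl and Cpt1a), against 16.3% of the 32851 windows of the table. GGGCGG occurred in 6 of 8, against 35.7%, and CCAAT in 2 of 8, against 37.4%. The windows of Hadha and Hadhb share 228 bases, and the only GGGCGG of the Hadha window is also counted for Hadhb. TGGGAA, the core letters bound by RBPJ, the DNA-binding partner of cleaved Notch, occurred in 1 of 8 (Acadvl), against 25.6%. The longer motif TCAAGGTCA, which contains AGGTCA, occurred in none of the 8 and in 0.423% of all windows. These matches are a description of letters and not of binding.

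Cpt1b (ENSMUSG00000078937) had the widest range of the 10, from 12.8 CPM to 698 CPM, or 54.4-fold. Within groups, the deviation of log2 CPM from the group mean followed the summed muscle markers over the 50 libraries with Pearson's r = 0.90 and Spearman's rho = 0.86. In permutation tests (two-sided, 100000 permutations, adjusted over 20 relations) both p-values were 1.25e-05, from the smallest value the permutations can give. Without the 2 libraries farthest from the median r was 0.93, and within 15 hours, 5 days and the first and second 7-day sets it was 0.97, 0.98, 0.81 and 0.75. Against brown fat markers r was 0.89.

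Cpt2 (ENSMUSG00000028607), the carnitine palmitoyltransferase of the inner membrane, followed brown fat markers with r = 0.93 and muscle markers with r = 0.76. Acadvl (ENSMUSG00000018574), the very-long-chain dehydrogenase of the inner membrane, gave r = 0.92 with brown fat, and Acadl (ENSMUSG00000026003) gave r = 0.91. Acadm (ENSMUSG00000062908), the medium-chain dehydrogenase, Hadha (ENSMUSG00000025745) and Hadhb (ENSMUSG00000059447), the subunits of the trifunctional protein, and Etfdh (ENSMUSG00000027809), which takes up electrons from electron transfer flavoprotein, gave r of 0.85 to 0.88. Adjusted permutation p-values of these 7 enzymes were 1.25e-05 for both marker sums. At 15 hours, at 5 days and in the first 7-day set each of the 7 had r of 0.54 or more with muscle markers and 0.86 or more with brown fat markers. In the second 7-day set values were lower for some. With muscle markers r there was 0.13 for Etfdh, 0.15 for Hadhb, 0.27 for Acadm and 0.28 for Acadl, and with brown fat markers 0.52 for Hadhb, 0.58 for Etfdh and 0.59 for Acadm. The separate parts of muscle and brown fat markers were not tested.

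Acaa2 (ENSMUSG00000036880) moved less with these markers. It had the narrowest range of the 10, 191.6 to 642 CPM or 3.35-fold. Its r was 0.66 with brown fat markers (adjusted permutation p = 4.71e-05) but -0.13 within the 15-hour libraries, and 0.27 with muscle markers (adjusted permutation p = 0.0647). At 15 hours, where the muscle sum ranged from 672 to 74541 CPM, Acaa2 stayed between 244.8 and 332 CPM.

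Cpt1a moved the other way. Its r was -0.53 with muscle markers (rho = -0.44, adjusted permutation p = 0.000789) and -0.43 with brown fat markers (rho = -0.33, adjusted permutation p = 0.0149). The muscle relation was -0.42 without the 2 farthest libraries and did not hold at every time, with r of -0.49 at 15 hours, -0.80 at 5 days, 0.20 in the first 7-day set and -0.46 in the second. With brown fat markers r was -0.59 at 15 hours, -0.59 at 5 days and -0.48 in the first 7-day set, but 0.23 in the second. Leaving out RW replicate 3 at 5 days reduced r against brown fat markers to -0.24, with an adjusted permutation p of 0.143. Among the 36 pairs of the other 9 enzymes, rho between within-group deviations ranged from 0.43 to 0.97 with a median of 0.90. The 9 pairs that included Cpt1a ranged from -0.54 to -0.16.

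**Figure D2:**
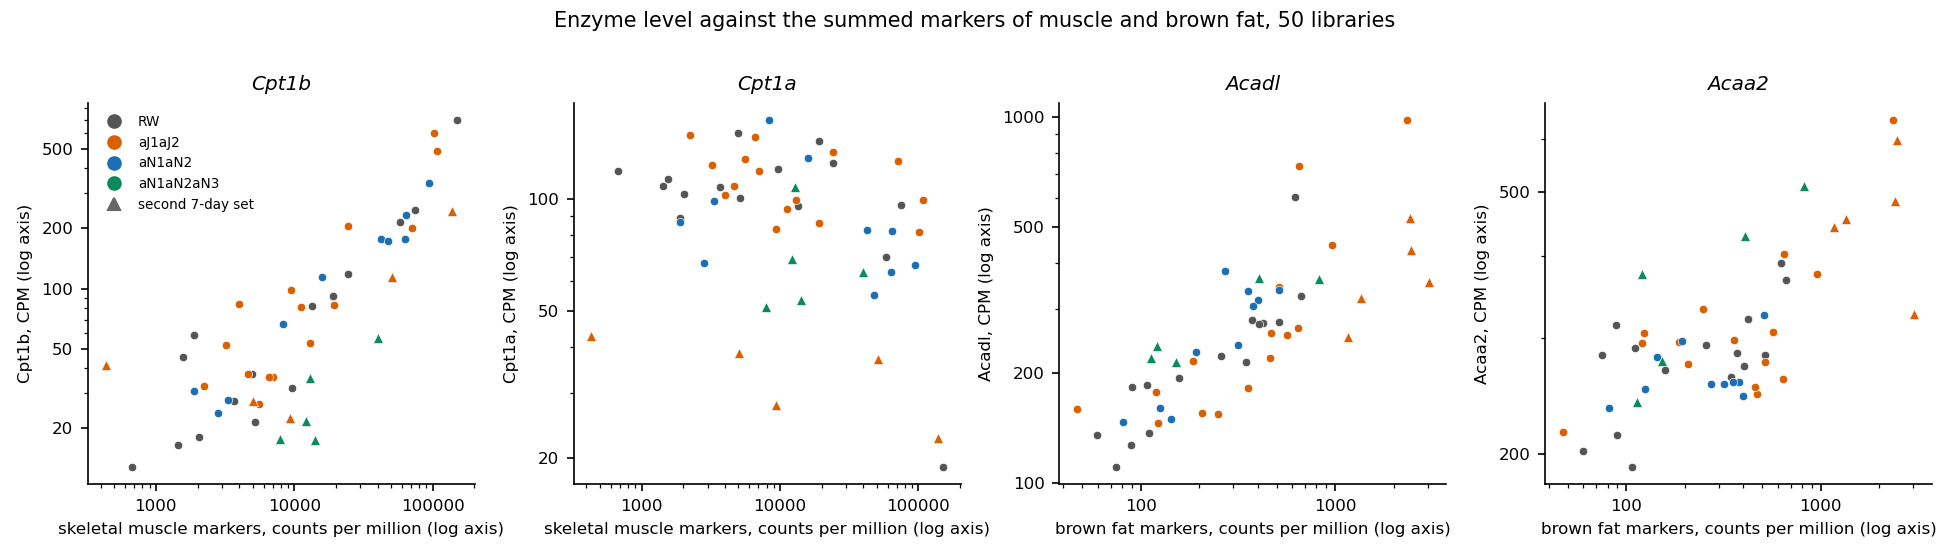
CPM of Cpt1b and Cpt1a against summed muscle markers, and of Acadl and Acaa2 against summed brown fat markers (all axes log), 1 point per library (n = 50), coloured by antibody, with triangles for the second 7-day set. Cpt1b and Acadl are high where their markers are high, whereas the lowest Cpt1a value, 18.9 CPM, lies at the highest muscle sum.

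Over all genes above 1 CPM on average (16189 genes ranked), those whose within-group pattern was most like the mean of the members were found by Spearman's rho over 50 libraries. Slc25a20, the carnitine-acylcarnitine carrier of the inner membrane, was first with rho = 0.95. Plin5, a lipid droplet protein of oxidative tissue, and Dvl2 followed at 0.94 each. Dvl2 overlaps Acadvl on the opposite strand, so reads of the 2 genes may not be separated. Hadh, the short-chain hydroxyacyl-CoA dehydrogenase, also stood at 0.94, and Abhd5, Ech1, Plbd1, Acads, Gm13910 and Acat1 stood between 0.92 and 0.93.

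The first comparison asked what blocking the ligands Jag1 and Jag2 did to the enzymes at 15 hours. Cpt1a measured 101, 69.9, 121, 119 and 96.2 CPM in RW and 129, 120, 127, 99.7 and 108 CPM in aJ1aJ2. The groups overlapped, and the log2 fold change was 0.20 ± 0.16 (SE, edgeR adjusted p = 0.988). Cpt1b measured 21.5, 216, 31.9, 12.8 and 249 CPM in RW and 26.6, 36.1, 201, 53.2 and 37.3 CPM in aJ1aJ2. Both groups held low and high libraries, and its log2 fold change of -0.58 ± 0.89 (SE) was smaller than its error. By edgeR's quasi-likelihood test none of the 10 passed an adjusted p of 0.05, where 0.573% of all genes tested did. None of the 10 had an unadjusted p under 0.05, and DESeq2 called 0. Fold changes ran from -0.58 to 0.20 with a median of 0.01, against -0.03 for all genes, and the median was -0.25 with the brown fat sum as a covariate.

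The second comparison at 15 hours set blocking of Notch1 and Notch2 against RW. The 2 groups come from separate runs of sample IDs, and antibody and ID run cannot be told apart here. Summed liver markers also separated them, with 39.8 to 216 CPM in RW and 0.537 to 1.64 in aN1aN2. The aJ1aJ2 libraries of 15 hours, in the same ID run as RW, lay wholly below RW as well, at 4.30 to 16.6 CPM. Cpt1a measured 86.7, 82.8, 63.7, 67.4 and 55.2 CPM in aN1aN2, each below the RW mean of 101 ± 20.7 CPM (SD, n = 5), although RW replicate 2 at 69.9 lay within their range. The log2 fold change was -0.51 ± 0.16 (SE, edgeR unadjusted p = 0.00594, adjusted p = 0.131), which missed the threshold. Acaa2 measured 290.2, 320.4, 314, 283 and 285 CPM in RW and 251, 244.8, 256, 281 and 258 CPM in aN1aN2. All 5 aN1aN2 libraries lay below all 5 RW libraries, the closest by under 2 CPM. Its log2 fold change was -0.21 ± 0.09 (SE, edgeR unadjusted p = 0.0382, adjusted p = 0.312).

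Cpt1b gave 30.6, 177, 178, 23.8 and 174 CPM in aN1aN2, again low and high libraries side by side, with a log2 fold change of 0.13 ± 0.89 (SE). None of the 10 was called by edgeR, where 1.68% of all genes were, and 2 had an unadjusted p under 0.05. DESeq2 called 0 of the 10. Without overlap between groups stood 1 of 10 enzymes, against 5.21% of all genes. Fold changes ran from -0.51 to 0.37 with a median of 0.14, against 0.01 for all genes. The median was 0.03 without aN1aN2 replicate 2, 0.37 without RW replicate 5 and -0.10 with the brown fat sum as a covariate. The sums of muscle markers were 672 to 74541 CPM in RW and 1898 to 63306 in aN1aN2, and with that sum as a covariate the median stayed at 0.14.

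At 5 days none of the enzymes passed the test under either antibody pair. Cpt1a measured 109, 108, 18.9, 95.6 and 103 CPM in RW. It measured 134, 149, 99.4, 124 and 147 CPM in aJ1aJ2, and 66.5, 129, 99.0, 81.9 and 164 CPM in aN1aN2. RW replicate 3, the library with Tg at 0.45% of reads, was far below all others. The log2 fold change was 0.58 ± 0.37 (SE, edgeR adjusted p = 0.570) for aJ1aJ2 and 0.30 ± 0.37 (SE, edgeR adjusted p = 0.878) for aN1aN2. Both comparisons share the RW libraries.

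Cpt1b at 5 days measured 16.6, 27.5, 698, 81.5 and 18.1 CPM in RW. It measured 205, 32.4, 486, 52.1 and 36.3 CPM in aJ1aJ2, and 338, 114, 27.8, 234 and 66.8 CPM in aN1aN2. The same replicate 3 that was lowest in Cpt1a was highest in Cpt1b, and every group overlapped the others. The log2 fold changes were -0.05 ± 1.12 (SE) for aJ1aJ2 and -0.12 ± 1.12 (SE) for aN1aN2.

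For aJ1aJ2 at 5 days edgeR called 0 of the 10 enzymes and 0.179% of all genes. For aN1aN2 it called 0 of the 10 and 0% of all genes, whereas DESeq2 called 486 genes, none of them among the 10. No enzyme had an unadjusted edgeR p under 0.05 in either comparison. The median fold changes of the 10 were 0.15 and -0.07, against -0.06 and -0.07 for all genes. They depended on 1 library: without RW replicate 3 the medians were 0.77 and 0.56, with 10 of 10 values above 0 in each comparison and no enzyme called. The muscle sums left in RW then reached at most 13460 CPM. Libraries rich in muscle markers stayed in the antibody groups: aJ1aJ2 replicate 3 (107284 CPM) and aN1aN2 replicates 1 (94304.5 CPM) and 4 (64223 CPM). The part of muscle in these medians was not tested.

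**Figure D3:**
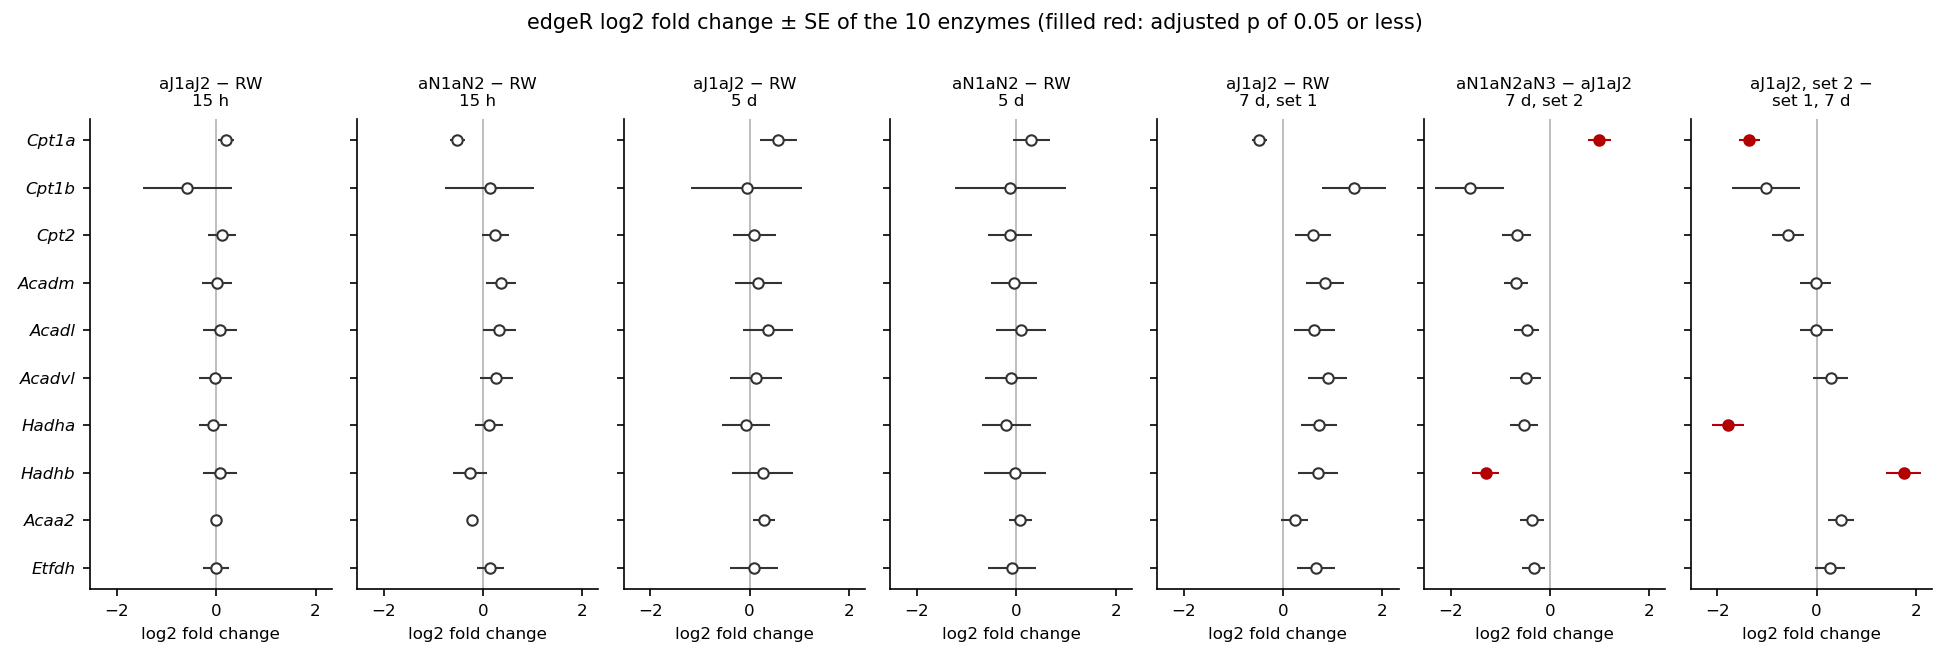
Log2 fold change by edgeR of each enzyme (points) with its SE (bars) in 7 comparisons, 1 panel each; filled red points have an adjusted p of 0.05 or less. The filled points are Cpt1a (1.00) and Hadhb (-1.29) in the second 7-day set, and Cpt1a (-1.36), Hadha (-1.79) and Hadhb (1.75) between the aJ1aJ2 groups of the 2 sets.

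In the first 7-day set aJ1aJ2 had lower Cpt1a and higher values of the other 9 enzymes, with none past the threshold. Cpt1a measured 144, 113, 125, 151 and 89.3 CPM in RW and 83.0, 81.5, 103, 93.9 and 86.1 CPM in aJ1aJ2. Of the RW libraries only replicate 5 lay within the aJ1aJ2 range. The log2 fold change was -0.48 ± 0.15 (SE, edgeR unadjusted p = 0.00798, adjusted p = 0.249), and leaving out each library in turn gave unadjusted p-values no higher than 0.0233.

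Cpt1b measured 92.0, 45.3, 118, 37.4 and 58.4 CPM in RW and 98.2, 600.5, 83.6, 80.9 and 82.6 CPM in aJ1aJ2. Replicate 2 of aJ1aJ2, the library high in muscle and brown fat markers, lay far above the rest, and the other 4 fell within the RW range. The log2 fold change was 1.43 ± 0.64 (SE, edgeR unadjusted p = 0.0482, adjusted p = 0.426). Without that library it was 0.29.

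Acadvl measured 135, 108, 137, 92.9 and 134 CPM in RW and 156, 545, 152, 136 and 138 CPM in aJ1aJ2. Its log2 fold change was 0.89 ± 0.39 (SE, edgeR unadjusted p = 0.0437, adjusted p = 0.416), and Acadm gave 0.84 ± 0.39 (SE, edgeR adjusted p = 0.433). Without aJ1aJ2 replicate 2 they were 0.26 and 0.23. By edgeR 0 of the 10 enzymes and 0% of all genes were called, and 3 enzymes had an unadjusted p under 0.05. DESeq2 called 476 genes and none of the 10. The median of the 10 was 0.68 against 0.01 for all genes, and 0.06 without aJ1aJ2 replicate 2. Summed brown fat markers were 158 to 666 CPM in RW and 461 to 2350 in aJ1aJ2, and muscle markers 1565 to 24267 and 3978 to 101628. With the muscle sum as a covariate the median was 0.17, and with the brown fat sum it was -0.17, with 8 of 10 values below 0.

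The second 7-day set compared blocking of Notch1, Notch2 and Notch3 with blocking of Jag1 and Jag2. Here Cpt1a was higher and Hadhb lower in aN1aN2aN3, and the other 8 enzymes had lower values that missed the threshold. Cpt1a measured 38.4, 42.7, 27.8, 22.7 and 37.1 CPM in aJ1aJ2 and 63.5, 108, 53.6, 68.9 and 51.1 CPM in aN1aN2aN3. Every aN1aN2aN3 library lay above every aJ1aJ2 library. The log2 fold change was 1.00 ± 0.24 (SE, edgeR adjusted p = 0.0147), and leaving out each library in turn kept the adjusted p between 0.0189 and 0.0371.

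Hadhb, the subunit with the thiolase activity, measured 40.9, 62.3, 41.6, 82.8 and 30.8 CPM in aJ1aJ2 and 31.0, 20.8, 17.7, 18.9 and 19.1 CPM in aN1aN2aN3. Replicate 1 of aN1aN2aN3 and replicate 5 of aJ1aJ2 met at 31, and all other libraries were separate. The group means were 51.7 ± 20.8 and 21.5 ± 5.43 CPM (SD, n = 5), and the log2 fold change was -1.29 ± 0.27 (SE, edgeR adjusted p = 0.00812). Leaving out each library in turn kept the adjusted p between 0.00402 and 0.0275.

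Hadha, the subunit that carries the hydratase and dehydrogenase activities, measured 84.6, 93.1, 72.1, 194 and 102 CPM in aJ1aJ2 and 103, 95.3, 69.6, 61.2 and 60.2 CPM in aN1aN2aN3. The groups overlapped, and its log2 fold change of -0.52 ± 0.28 (SE, edgeR adjusted p = 0.200) did not pass. Cpt1b measured 27.4, 41.5, 22.6, 244 and 114 CPM in aJ1aJ2 and 56.8, 35.8, 17.4, 21.8 and 17.7 CPM in aN1aN2aN3. Replicates 4 and 5 of aJ1aJ2 were high and the rest overlapped (-1.62 ± 0.70, log2, SE, edgeR adjusted p = 0.131).

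Acadm came nearest to the threshold among the dehydrogenases, with 200 ± 65.0 CPM in aJ1aJ2 and 128 ± 30.2 CPM in aN1aN2aN3 (SD, n = 5) and a log2 fold change of -0.67 ± 0.24 (SE, edgeR adjusted p = 0.0693). Acadl gave -0.47 and Acadvl -0.49 on the log2 scale. Cpt2 gave -0.67, Acaa2 -0.36 and Etfdh -0.32, with adjusted p-values of 0.116, 0.306 and 0.345 by edgeR.

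Of the 10 enzymes 2 were called, 1 higher and 1 lower, where edgeR called 19.6% of all genes (9.19% higher and 10.4% lower). Without overlap stood 1 of 10 enzymes, against 15% of all genes. The median fold change of the 10 was -0.50 against -0.07 for all genes, and 0.54 with the brown fat sum as a covariate, with 9 of 10 values above 0. Brown fat markers summed to 1164 to 3036 CPM in aJ1aJ2 and 113 to 823 in aN1aN2aN3, with no overlap, and 5 of the 6 tested brown fat markers passed as lower. General fat markers were 3655 to 6093 and 504 to 2161 CPM, and Tg 1.15% to 2.82% and 3.73% to 6.5% of reads. Summed markers of C cells, the calcitonin cells of the thyroid, were 4548 to 19211 CPM in aJ1aJ2 and 22518 to 30876 in aN1aN2aN3, also with no overlap. Of the 4 C cell markers 1 passed as higher, and their part was not tested. With the brown fat sum as a covariate no gene at all was called, Cpt1a gave 1.5 (edgeR adjusted p = 0.636) and Hadhb -0.55 (edgeR adjusted p = 0.792). The antibody group and the brown fat level cannot be told apart in these 10 libraries.

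Other genes of lipid metabolism are counted here beside the 19.6% of all genes called, 9.19% higher and 10.4% lower. Of 18 other genes of mitochondrial oxidation, 4 fell and none rose by edgeR. They were Decr1, which handles unsaturated chains (-0.95 log2), the thiolase Acat1 (-0.88), and both subunits of electron transfer flavoprotein, Etfb (-0.79) and Etfa (-0.68). Of 13 peroxisomal genes, Ehhadh rose (0.73) and 4 fell: Abcd2, a peroxisomal fatty acid transporter (-2.72), Acaa1b (-2.89, at 3.68 CPM or less on average), Scp2 (-0.72) and Crot (-0.66). Of 14 regulators, 3 fell: Pparg, the nuclear receptor of fat cells (-1.34), Esrra (-1.10) and Acaca, whose product makes the malonyl-CoA that inhibits the Cpt1 enzymes (-0.97). The counts of 4 of 18 and 3 of 14 lie near the 19.6% called in either direction. All of them were lower, where the share of all genes is 10.4%. The lists were not tested, and these counts are no result about them.

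Of 10 PPAR target genes outside the pathway, 5 rose and 2 fell. Among those that rose were Acot1 (2.64), Pdk4, which restrains pyruvate oxidation (1.84), Angptl4 (1.09) and Acot2 (0.80), and the fatty acid transporter Cd36 (-1.61) fell by edgeR. The other that fell, the lipid droplet protein Plin2 (-1.11), stood beyond the rule of 6 named genes a list and was added after its value was seen. Of 9 fatty acid synthesis genes 6 fell, led by Scd1 (-3.68 ± 0.44, SE) and Thrsp (-3.37 ± 0.40, SE), with Fasn at -1.82, Me1 at -1.44, Elovl6 at -1.28 and Acly at -1.09. Medians of these 5 lists, in the order given, were -0.58, -0.02, -0.69, 0.56 and -1.28, against -0.07 for all genes. In the 5 comparisons with RW no gene of these lists passed the edgeR threshold.

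The aJ1aJ2 groups of the 2 sets received the same antibodies for the same time, and 3 of the 10 enzymes differed between them where 64% of all genes did (34.1% higher and 29.9% lower in the second set). The groups did not overlap for 2 of the 10, against 43.6% of all genes. Cpt1a was lower in the second set, with no overlap (-1.36 ± 0.21, log2, SE, edgeR adjusted p = 1.22e-05). Hadha measured 281, 900.1, 270, 249 and 257 CPM in the first set, and all 5 libraries of the second were lower (-1.79 ± 0.32, log2, SE, edgeR adjusted p = 6.4e-05). Hadhb measured 11.6, 38.6, 11.1, 8.41 and 10.4 CPM in the first set, below all of the second except at replicate 2 (1.75 ± 0.35, log2, SE, edgeR adjusted p = 0.000195). The subunits of 1 enzyme complex differed in opposite directions. No label says whether both sets were counted with the same annotation and strand setting, so what these levels mean between sets is uncertain.

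Set and every other condition of that set cannot be told apart here. Leaving out aJ1aJ2 replicate 2 of the first set raised the number of enzymes called from 3 to 8.

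Hadha and Hadhb lie head to head, and the sequence between them is shown because both genes, as annotated in GENCODE M21, start at its ends. Their RefSeq starts lie outside this stretch, with 272 bases between them. GENCODE M21 leaves 85 bases between the genes, at chr5:30155163-30155247 of GRCm38.p6, printed on the plus strand, on which Hadhb lies; capitals mark the GC box GGGCGG.
Hadha and Hadhb: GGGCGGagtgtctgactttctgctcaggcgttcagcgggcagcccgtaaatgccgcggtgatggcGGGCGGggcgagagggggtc

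The level of Hadha stood at 11.7 to 29.5 times that of Hadhb, per kb of exon, in the 40 libraries outside the second set. In the 10 libraries of the second set it stood at 1.13 to 3.47 times. Within the second set the ratio was 1.13 to 2.5 in aJ1aJ2 and 2.38 to 3.47 in aN1aN2aN3, a log2 difference of 0.77. An exact permutation test (two-sided, smallest possible p = 0.00794) gave p = 0.0238, and 0.143 after adjustment over 6 comparisons. This ratio was chosen after the levels were seen.

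The ratio of Cpt1b to Cpt1a, per kb of exon, compares the muscle and brown fat form with the form of other tissues. In the first 7-day set it was 0.561 to 2.14 in RW and 1.85 to 16.7 in aJ1aJ2, a log2 difference of 1.45. In the second set it was 1.62 to 24.3 in aJ1aJ2 and 0.716 to 2.03 in aN1aN2aN3, a log2 difference of -2.16. The same exact permutation test gave p = 0.0238 in each, and 0.0714 after adjustment over 6 comparisons, which missed the threshold. At 15 hours and 5 days the differences lay between -0.28 and 1.12, with exact p-values of 0.270 or more. Median sums of brown fat markers were 405 CPM in RW and 567 CPM in aJ1aJ2 of the first set, and 2426 CPM in aJ1aJ2 and 152 CPM in aN1aN2aN3 of the second. Those of muscle markers were 4956 and 11198 CPM in the first set. In the second the medians were 9351 CPM in aJ1aJ2 and 12912 CPM in aN1aN2aN3, with ranges of 433 to 138034 and 7929 to 40022 CPM. Within that aJ1aJ2 group the ratio was highest in replicates 4 (24.3) and 5 (7.00). These libraries also had its highest muscle sums, 138034 and 51225 CPM. The part of either marker sum was not tested.

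**Figure D4:**
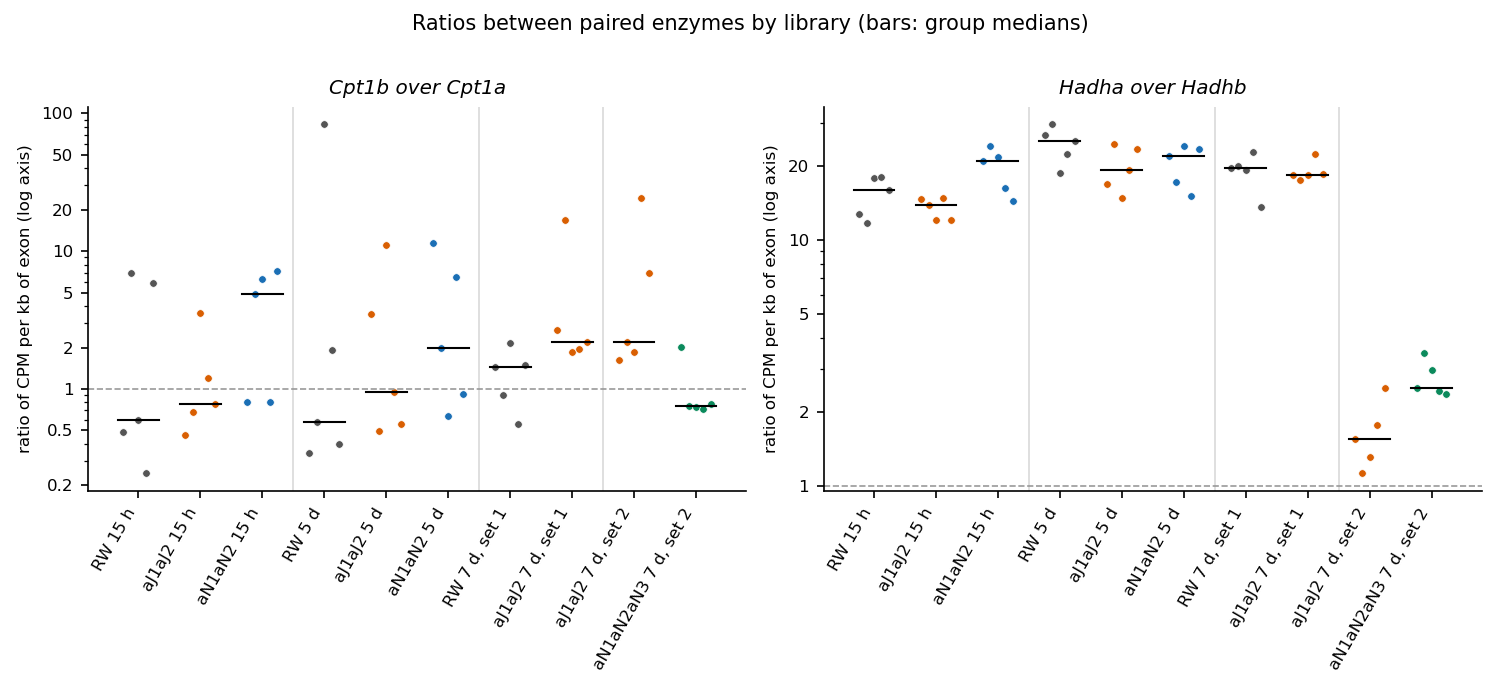
Ratio of Cpt1b to Cpt1a (per kb of exon) and of Hadha to Hadhb (per kb of exon) in every library, on log axes, by group; bars are group medians and the dashed line marks equal levels per kb of exon. Hadha to Hadhb is 11.7 or more in the first 8 groups and 3.47 or less in the 2 groups of the second 7-day set, and Cpt1b to Cpt1a peaks at 83.5 in RW replicate 3 at 5 days.

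Tests of whether an antibody effect differed between times called none of the 10 enzymes by edgeR or DESeq2. The backgrounds were 0.636% of genes for aJ1aJ2 between 5 days and 15 hours, 1.8% for aN1aN2 between the same times and 0.314% for aJ1aJ2 between the first 7-day set and 15 hours. Of the 30 values only that of Cpt1a for aJ1aJ2 between 7 days and 15 hours had an unadjusted p under 0.05. It was -0.70 ± 0.22 (log2, SE, edgeR unadjusted p = 0.00529, adjusted p = 0.201). For Cpt1a the effect of aN1aN2 differed by 0.80 ± 0.42 (log2, SE, edgeR adjusted p = 0.380) and that of aJ1aJ2 by 0.34 ± 0.42 between 5 days and 15 hours. The aN1aN2 value also holds the difference in ID run between the groups of 15 hours, which the 5-day groups lack.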

How the data were processed

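Thyroid RNA was sequenced as single-end reads of 50 bases, per the labels' protocols. The submitters' processing notes name GSNAP and limma. The sources used here name no counter, genome build, annotation or strand setting. The deposited tables hold whole-number counts and, from the authors, FPKM values for 52636 Ensembl IDs in 50 libraries, and 52403 IDs matched a GENCODE M21 symbol. The deposited FPKM values divide by a length that follows the gene's span with introns for 89.8% of genes (within 5%), so levels between genes were set per kb of M21 exon.

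Counts were tested with edgeR 4.0.16 (TMM scaling, robust quasi-likelihood fits, Benjamini-Hochberg adjustment over all genes tested, threshold 0.05) on genes kept by filterByExpr, set to at least 10 counts in a group's libraries and 15 in all, with 1 fit for each time or set. Fits with interaction terms compared times. Simulated counts were used to test the script. Alternatives were DESeq2 1.42.0, RLE scaling, no filter, limma 3.58.1 on log2(FPKM + 0.1) or with library weights, marker covariates, a replicate block, other sets of libraries in the fit and leaving out each library. Named genes were the 10 enzymes, up to 6 genes of each other list past the threshold with the smallest adjusted p, the 10 genes most like the members within groups, and the 2 most abundant genes of a marker list. A gene that this rule named is not reported here. No pair of libraries within a group had counts alike within sampling noise. Members, gene lists and tests were chosen with earlier results of these data known. Sequences are from RefSeq, GRCm38.p6.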

Additional observations from a re-analysis of the deposited data

Results flagged for a closer look

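In a group of 5 libraries a value was singled out when its gap to the nearest other value exceeded Dixon's 95% critical value as a share of the group's range. This held for 27 of 100 combinations of enzyme and group, where chance gives about 1 in 20 for independent values of normal spread. CPM was not log-transformed here and most of the enzymes vary together, so the excess over that share was not tested. RW replicate 3 at 5 days, whose Tg share was 0.45%, accounted for 9. It was lowest of its group in Cpt1a (18.9 CPM) and highest in Cpt1b (698), Cpt2 (139), Acadm (357), Acadl (604), Acadvl (406), Hadha (792), Hadhb (31.9) and Etfdh (297 CPM).

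Replicate 2 of aJ1aJ2 in the first 7-day set accounted for another 9 as the highest of its group: Cpt1b 600.5 CPM, Cpt2 236, Acadm 501, Acadl 983, Acadvl 545, Hadha 900.1, Hadhb 38.6, Acaa2 642 and Etfdh 384 CPM. Replicate 3 of aJ1aJ2 at 15 hours, with a muscle marker sum of 70927 CPM, was highest in 6: Cpt1b 201 CPM, Acadm 167, Acadl 344, Acadvl 169.8, Hadhb 22.0 and Etfdh 139.8 CPM.

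The other 3 values were each the only one flagged in their library and the highest of its group. They were Acaa2 at 368 CPM in RW replicate 5 of the first 7-day set, Hadha at 194 CPM in aJ1aJ2 replicate 4 of the second set, and Hadhb at 31.0 CPM in aN1aN2aN3 replicate 1. That aJ1aJ2 library had a muscle marker sum of 138034 CPM. It was also highest of its group in Cpt1b, Cpt2, Acadm, Acadl, Acadvl, Hadhb and Etfdh, short of the critical value.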

How the results depend on the processing

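Of 261 fold changes given one by one, recomputed under settings other than leaving out a library, 229 kept their direction and side of the threshold, 7 passed only under the alternative, 2 were lost and 23 changed sign; leaving out 1 library gave 399, 2, 0 and 14 of 415. Over all 10 enzymes in 10 comparisons 114 of 859 and 163 of 1800 values changed sign, and 2 of each were called under either setting. Cpt1b changed sign in every 5-day and 15-hour comparison with RW under some setting. For aJ1aJ2 at 15 hours it was 0.043 with the replicate block and 0.24 with library weights (leaving out 1 library, -1.42 to 0.036). For aN1aN2 at 15 hours it was -0.27 with the brown fat covariate (-0.13 to 0.75). For aJ1aJ2 at 5 days it was 0.45 with the block, 0.40 with the muscle covariate, 0.16 with the brown fat covariate, 1.00 with weights, 0.70 on FPKM and 1.19 without the 2 libraries low in Tg, an alternative added after seeing the data (-1.06 to 2.18). For aN1aN2 at 5 days these were 1.43 with the block, 0.37 with brown fat, 1.64 with weights, 0.98 on FPKM and 2.12 without the 2 libraries (-0.63 to 2.11). In the first 7-day set it was -0.049 with the brown fat covariate. In the second set that covariate gave Cpt1b 0.96, Cpt2 0.68, Acadm 0.018, Acadl 0.55, Acadvl 0.83, Hadha 0.53, Acaa2 0.32 and Etfdh 0.35. The cause was not tested, except that this covariate does not overlap between the groups.

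Enzymes called in the second set numbered 4 with the muscle covariate, 4 with weights, 3 with DESeq2, 0 with the brown fat covariate and 2 to 3 when 1 library was left out. With weights 1 enzyme was called in the first 7-day set (Cpt1a, -0.50, adjusted p = 0.0266) and 2 in the difference of the aN1aN2 effect between times (Cpt1a 0.92 and Acaa2 0.64). Between the aJ1aJ2 sets the number was 6 with brown fat, 10 with weights and 3 to 8 when 1 library was left out. The replicate block changed no number of enzymes called. It moved the median of the 10 for aN1aN2 at 5 days from -0.07 to 0.26, with 10 of 10 above 0. Of 5 same-numbered pairs, 4 had r above 0.1 for aN1aN2 at 15 hours and for aJ1aJ2 at 5 days, and 2 or fewer in the other comparisons. No comparison had all 5, and at most 2 libraries correlated best with their own number, so the numbers were not taken as pairing. The Cpt1b to Cpt1a difference ranged from -0.87 to 0.34 for aJ1aJ2 at 15 hours, -0.77 to 1.35 for aJ1aJ2 and -0.010 to 1.97 for aN1aN2 at 5 days when 1 library was left out; Hadha to Hadhb ranged from -0.10 to 0.090 in the first 7-day set and 0.65 to 0.94 in the second. Cpt1a against brown fat markers gave r = -0.24 without RW replicate 3 at 5 days.

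Numbers of all genes called moved by over 1.5 times: DESeq2 gave 318, 935, 477, 486 and 476 in the comparisons with RW against 106, 311, 33, 0 and 0 by edgeR. In the second set the brown fat covariate gave 0, the block 2100 and weights 8248 against 3614. FPKM was not run for aN1aN2 at 15 hours, where the groups were scaled apart, nor for any of the differences between times.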

Other observations

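Some of the genes whose within-group pattern was most like that of Cpt1a alone were listed after its separate behaviour was seen. Over the 50 libraries Ankfy1 had a Spearman's rho of 0.81, Fzd3, a Wnt receptor, 0.80, and Tmppe and Madd 0.76 each.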
